A study of Mus musculus with 6 samples.

Results

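Rbm3 and Cirbp, the 2 genes described here, encode the best-known cold-inducible RNA-binding proteins of mammalian cells. They were taken by symbol from the 41079 genes listed in an expression table of D10 cells (D10.G4.1), a cloned mouse helper T cell line labelled as CD4+, in which each gene's abundance is given as TPM (reads divided by gene length and scaled to the same total in every library). Non-acclimated cells were kept at 37°C for 24 h (3 libraries) and cold-acclimated cells at 26°C for 24 h (3 libraries), and no other agent or allele separated the groups. The comparison asks how the transcriptome differs between cells acclimated to cold and cells kept warm, and the material is described as a single clone in culture. The labels say that RNA came from old and new extraction batches, taken as biological replicates, without saying which library belongs to which. Both genes passed the filter on low values, which required the mean over the 6 libraries to reach 1 TPM, as did 12227 genes in all.

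Each protein is small and carries an RNA recognition motif at its start, followed by a stretch rich in glycine and arginine. Both are known to accumulate in many cell types under mild cooling, to bind large sets of mRNAs and to affect their stability and translation. Their mRNA levels are known to be set at several steps: by transcription, by temperature-sensitive splicing (an exon of Rbm3 that leads to decay of the transcript by nonsense-mediated decay when it is included, and alternative forms of Cirbp), and by mRNA stability. Rbm3 has been studied mostly in cooled neurons, and Cirbp for its link to the circadian clock. The values here are levels of RNA per gene, and protein was not measured.

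The sequence just upstream of the start of the canonical Cirbp transcript is shown because factors described for this gene are known to act at its promoter. In GRCm39, the build of the deposited table, the 250 bases before the start of the canonical GENCODE M39 transcript of Cirbp lie at chr10:80003362-80003611 on the plus strand. This window lies inside Cirbp as the table lists it, since other annotated transcripts start farther upstream. The capitals mark matches, on either strand, to the mild cold response element TCCCCGCC and to the GC box GGGCGG bound by Sp1.
Cirbp: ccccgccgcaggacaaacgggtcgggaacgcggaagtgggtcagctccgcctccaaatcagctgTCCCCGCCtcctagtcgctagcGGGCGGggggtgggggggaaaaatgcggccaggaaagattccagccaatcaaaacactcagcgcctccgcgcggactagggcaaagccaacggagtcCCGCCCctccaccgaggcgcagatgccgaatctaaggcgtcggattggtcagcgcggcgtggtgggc

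The Cirbp window had a GC content of 66.4% and held the mild cold response element once, 186 bases before the start, and the GC box at 164 and 67 bases before it. Over the windows of 21770 protein-coding genes cut in the same way, TCCCCGCC was found in 4.79% and GGGCGG in 36.3%. Of the other letters searched, CCAAT was found at 2 places in the Cirbp window, against 36.5% of all windows with at least 1 match, while TATAAA (11.9% of all windows), the heat shock element GAANNTTC (6.33%) and the cyclic AMP response element TGACGTCA (1.69%) were not in it. These matches describe the letters only.

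Rbm3 lies on chromosome X from 8005214 to 8012119 on the minus strand, and Cirbp on chromosome 10 from 80001824 to 80008620 on the plus strand. GENCODE M39 lists 72 transcripts of Rbm3, of which 40 are marked as targets of nonsense-mediated decay and 29 as protein coding, and its canonical transcript has 6 exons. For Cirbp it lists 26 transcripts, 7 of them marked as decay targets, 15 as protein coding and 4 with a retained intron, and the canonical transcript has 7 exons. The deposited values are 1 number per gene and cannot separate these forms, so a shift between a decayed and a translated form would not show as such.

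Reads counted for the listed genes, read back from the TPM values, numbered 16899628 to 31290854 per library. The labelled cell type was looked at with 16 T cell markers. Their summed level was 4101.7 to 5642.4 TPM in non-acclimated and 4938.9 to 5900.3 TPM in cold-acclimated libraries. Of the 16, 3 stayed below 1 TPM in every library (Trbc1, Cd5 and Thy1, with Thy1 listed at 0). The other 13 were tested and 0 were called between temperatures, beside 2.63% of all tested genes called upregulated and 16% downregulated. After median of ratios scaling 1 of the 13, Lat, was called upregulated (limma, log2 fold change 1.15, adjusted p 0.037). In that fit 6.56% and 8.79% of all tested genes were called upregulated and downregulated. Such calls compare the temperatures and do not test the cell type. Cd4 itself was 1.09, 0.0351 and 310 TPM in non-acclimated replicates 1, 2 and 3 and 1.3, 0.352 and 328 TPM in cold-acclimated replicates 1, 2 and 3. The pair of libraries numbered 3 therefore stands apart in Cd4 at either temperature. The low Cd4 mRNA in replicates 1 and 2 is at odds with the CD4+ label, and its cause was not tested. The pair numbered 2 stands apart in other T cell markers: the T cell receptor gene Trac was at 15 and 12.8 TPM there against 129 to 207 TPM in the other libraries, Cd3d at 64.3 and 78.6 against 240 to 332 TPM, and Cd28 at 7.35 and 5.61 against 27.9 to 54.5 TPM. The fold changes of Rbm3 and Cirbp and their ratio are also given without either pair. B cell markers summed to at most 3.62 TPM and macrophage and monocyte markers to at most 21.5 TPM, and the erythroid list, mostly Hba-a1, reached 487 TPM in non-acclimated and 475 TPM in cold-acclimated libraries; their part in the results was not tested.

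Cirbp was more abundant after cold acclimation in every replicate. Its level was 62.4, 53.6 and 16.2 TPM in non-acclimated replicates 1, 2 and 3, and 122.8, 135.3 and 94.7 TPM in cold-acclimated replicates 1, 2 and 3. The lowest cold-acclimated library stood above the highest non-acclimated one, so the groups did not overlap; 1185 of the 12227 tested genes, 9.69%, had their cold-acclimated libraries all higher in this way. The mean was 44.1 ± 24.5 TPM (SD, n = 3) at 37°C and 117.6 ± 20.8 TPM (SD, n = 3) at 26°C.

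**Figure D1:**
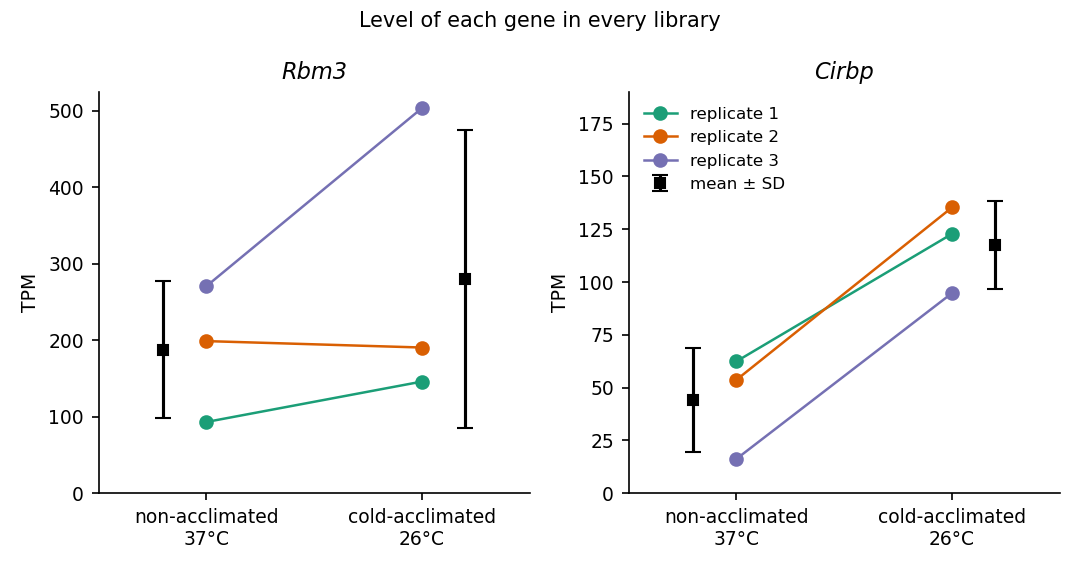
Level of Rbm3 and Cirbp in TPM (linear axis from 0) in each of the 6 libraries, with lines joining the libraries of the same replicate number and squares with bars for the mean ± SD of 3 libraries. Cirbp lies at 94.7 TPM or above in every cold-acclimated library and at 62.4 TPM or below in every non-acclimated library, while the Rbm3 groups overlap and replicate 2 is level.

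On the log2(TPM + 1) scale the fold change of Cirbp was 1.59 (SE 0.49, 95% interval 0.45 to 2.72), which corresponds to 3-fold. In limma without a block the adjusted p was 0.055, so Cirbp missed the threshold of 0.05 and was not called, although its fold change exceeded the required log2 of 1. In that fit 2.63% of tested genes were called upregulated and 16% downregulated. The replicate numbers pair the libraries, and with the number as a block the fold change was the same, its SE 0.31 and its adjusted p 0.012, so that Cirbp rose. Under the block 3.75% of tested genes were called upregulated and 21.9% downregulated. By fold change Cirbp ranked 167 among the 12227 tested genes, with 1.36% of them above it.

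The outcome for Cirbp depended on which libraries were used. The non-acclimated library of replicate 3 had the lowest Cirbp level, with 417 reads (exact 95% Poisson interval 377.9 to 459, which covers counting error only), and the other 5 libraries had 915 to 2604 reads. Without both libraries of replicate 3 the fold change was 1.14 on the log2 scale (SE 0.22) and Cirbp rose in limma (adjusted p 0.013), with 5.34% of tested genes called upregulated and 25.3% downregulated. Without the non-acclimated library of replicate 3 alone it was 0.995, just under the required size, at an adjusted p of 0.045. Without both libraries of replicate 2 the log2 fold change of Cirbp was 1.72 (SE 0.65, adjusted p 0.25). In that fit of 2 against 2 libraries 0% of tested genes were called in either direction by limma, although 2229 had an unadjusted p under 0.05.

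Rbm3 was among the more abundant mRNAs at either temperature, but its level varied widely between replicates and the groups overlapped. Rbm3 was at 93.1, 199 and 271 TPM in non-acclimated replicates 1, 2 and 3, and at 146, 190.5 and 504 TPM in cold-acclimated replicates 1, 2 and 3. Replicate 3 was the highest and replicate 1 the lowest library of each group. The mean was 187.6 ± 89.4 TPM (SD, n = 3) at 37°C and 280.1 ± 195 TPM (SD, n = 3) at 26°C. The SD was 69.6% of the mean for Rbm3 in cold-acclimated cells, against 17.7% for Cirbp. In non-acclimated cells the order was reversed, at 47.6% for Rbm3 and 55.7% for Cirbp.

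The log2 fold change of Rbm3 was 0.49 (SE 0.55, 95% interval -0.78 to 1.77) with an adjusted p of 0.56 in limma, and Rbm3 was not called. The interval, from 0.581-fold to 3.4-fold, holds no change as well as a rise larger than the value found for Cirbp. With the replicate block the adjusted p of Rbm3 was 0.14 (SE 0.24, 95% interval -0.07 to 1.06). Without both libraries of replicate 3 the log2 fold change was 0.29 (SE 0.39, adjusted p 0.6), and without the cold-acclimated library of replicate 3 alone it was -0.04, of the opposite sign. Without both libraries of replicate 2 it was 0.77 (SE 0.75, adjusted p 0.63). The reads behind these levels numbered 2287 to 18422 per library.

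Each gene was also compared within replicate numbers. The cold-acclimated minus non-acclimated difference of Cirbp in log2(TPM + 1) was 0.97, 1.32 and 2.48 in replicates 1, 2 and 3. That of Rbm3 was 0.64, -0.06 and 0.89. Replicate 2 thus had a 2.52-fold higher Cirbp level and a nearly equal Rbm3 level (0.958-fold), and replicate 3 had the largest difference for each gene.

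**Figure D2:**
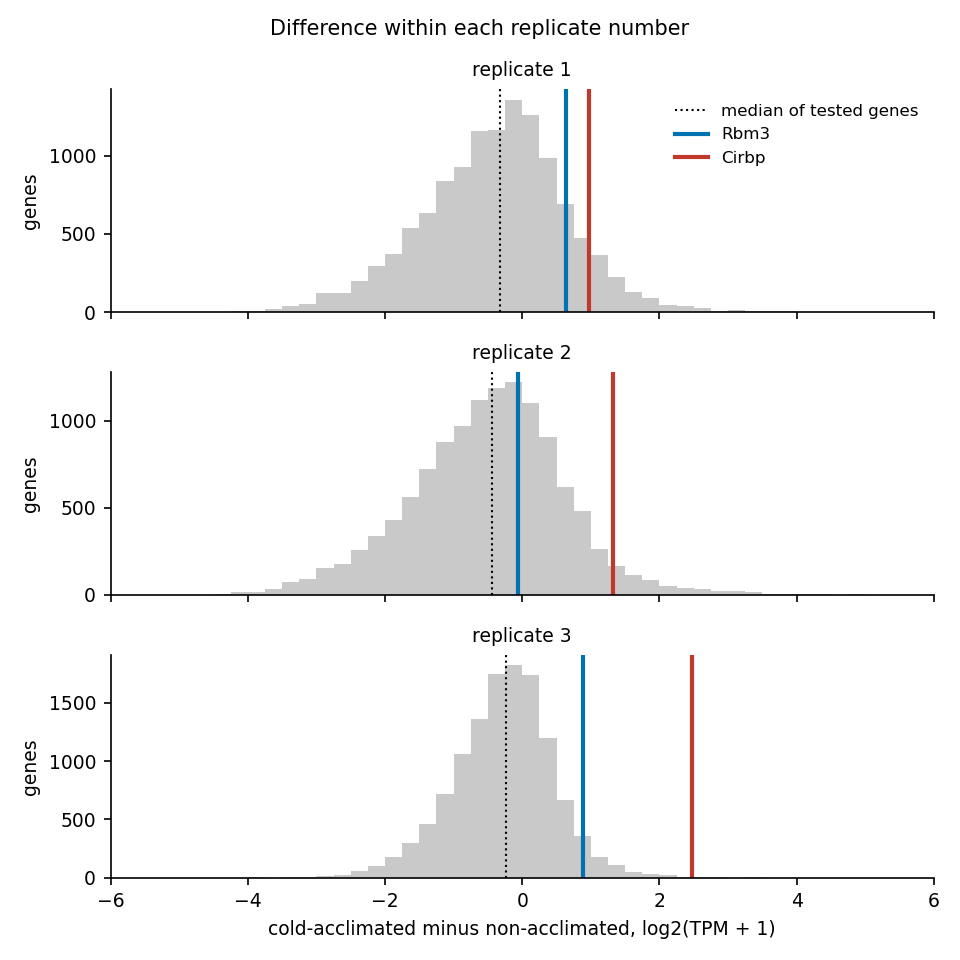
Number of tested genes by their cold-acclimated minus non-acclimated difference in log2(TPM + 1), for each replicate number, with lines at Rbm3, at Cirbp and at the median of the 12227 tested genes. Cirbp lies on the right of the distribution in each replicate (0.97, 1.32 and 2.48), Rbm3 at 0.64, -0.06 and 0.89.

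These differences are relative to a shifted centre. Over the tested genes the log2 fold change had a median of -0.34 in the TPM as deposited and of 0.02 after scaling the libraries by the median of ratios. Relative to this median, the log2 fold change was 0.83 for Rbm3 and 1.92 for Cirbp as deposited, and 0.87 and 1.96 after rescaling. In replicates 1, 2 and 3 the tested genes with a higher difference than Cirbp made up 8.51%, 4.39% and 0.221%, and those above Rbm3 14.1%, 34.9% and 4.31%.

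With the median of ratios the log2 fold change of Cirbp was 1.98 (SE 0.50) and Cirbp rose, at an adjusted p of 0.037 in limma; in that fit 6.56% of tested genes were called upregulated and 8.79% downregulated. Rbm3 had a log2 fold change of 0.89 (SE 0.50) at an adjusted p of 0.24. With the block added to this scaling, the adjusted p of Rbm3 was 0.025 (SE 0.21, 95% interval 0.39 to 1.39), and Rbm3 was not called because 0.89 is below the required log2 fold change of 1. Its log2 fold change was under 1 in every fit made.

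**Figure D3:**
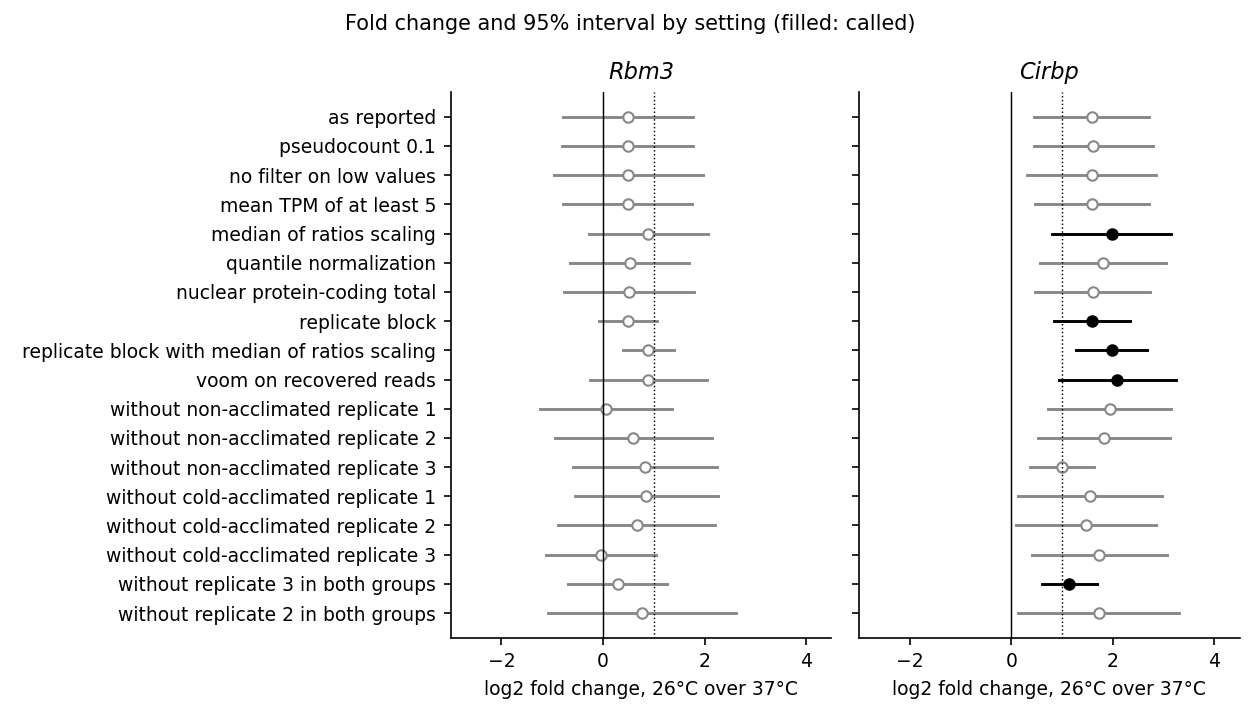
Log2 fold change of Rbm3 and Cirbp (26°C over 37°C) with its 95% interval under each way of processing, where filled black points passed both thresholds and the dotted line marks a log2 fold change of 1. Cirbp runs from 0.995 to 2.09 and is called in 5 of the fits shown, while Rbm3 runs from -0.04 to 0.89 and is called in none.

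Rbm3 was more abundant per length than Cirbp in each of the 6 libraries. The log2 ratio of Rbm3 to Cirbp, taken on TPM + 1 within each library, was 0.57, 1.87 and 3.98 in non-acclimated replicates 1, 2 and 3. It was 0.25, 0.49 and 2.40 in cold-acclimated replicates 1, 2 and 3, lower than in the non-acclimated library of the same number each time. The mean log2 ratio was 2.14 ± 1.72 (SD, n = 3) at 37°C and 1.05 ± 1.18 (SD, n = 3) at 26°C. The difference of -1.10 between cold-acclimated and non-acclimated cells was smaller than the spread between replicates (two-sided exact permutation test p = 0.5, where 0.1 is the smallest p that 3 against 3 libraries allow). Within replicates 1, 2 and 3 it was -0.32, -1.38 and -1.58 (exact sign-flip test p = 0.25, the smallest that 3 pairs allow), and it was -0.85 without both libraries of replicate 3 and -0.95 without both of replicate 2. Neither test could reach a p under 0.05 with 3 libraries per group, so they cannot decide whether the changes of Rbm3 and Cirbp differ.

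Rbm3 shares sequence with other genes of the table, which bears on its level. Rbm3os, a non-coding gene on the plus strand of chromosome X (8011666 to 8014203), overlaps the start of Rbm3 on the opposite strand by 454 bases. Its level was 54.8, 205.4 and 298.2 TPM in non-acclimated replicates 1, 2 and 3, and 87, 215.6 and 543.9 TPM in cold-acclimated replicates 1, 2 and 3, and its log2 fold change was 0.53 (SE 0.79, adjusted p 0.67). These values follow those of Rbm3, with the lowest level in replicate 1 and the highest in replicate 3 of each group. For every 100 reads of Rbm3 there were 13.8 to 26.6 reads of Rbm3os. The libraries were made strand-specific, but the strand setting of the counting is not given in the sources used here, so reads of the shared stretch cannot be assigned to either gene with certainty.

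Rbm3-ps, on the minus strand of chromosome 1 (150140677 to 150141822), is listed as protein coding in the deposited table and as a transcribed processed pseudogene in GENCODE M39. Aligned to the canonical Rbm3 transcript, it matched 456 of the 459 coding bases (99.3%), and the longest identical stretch of the alignment was 389 bases, longer than a read of this study. The coding bases 286 to 345, counted from the start codon, are shown because they hold 2 of the 3 coding differences, in capitals.
Rbm3: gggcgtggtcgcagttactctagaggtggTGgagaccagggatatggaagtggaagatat
Rbm3-ps: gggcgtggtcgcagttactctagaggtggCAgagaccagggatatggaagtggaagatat

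How reads that fit both places were counted is not given in the sources used here, so the level of Rbm3 may lack reads of its coding part, and that of Rbm3-ps is uncertain. The Rbm3-ps level was 6.24, 12.3 and 15.3 TPM in non-acclimated replicates 1, 2 and 3, and 10.5, 10.6 and 27.5 TPM in cold-acclimated replicates 1, 2 and 3. It had 1.75 to 2.3 reads for every 100 reads of Rbm3 in each library. With the TPM of Rbm3-ps added to that of Rbm3, a check chosen after seeing the data, the log2 fold change of Rbm3 was 0.49 (limma, adjusted p 0.55). With so few reads of Rbm3-ps this sum could move the value little. It also cannot restore reads that were counted for neither gene, so it does not decide how such reads bear on Rbm3. Cirbp had no overlapping gene and no gene with a similar name in the table.

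**Figure D4:**
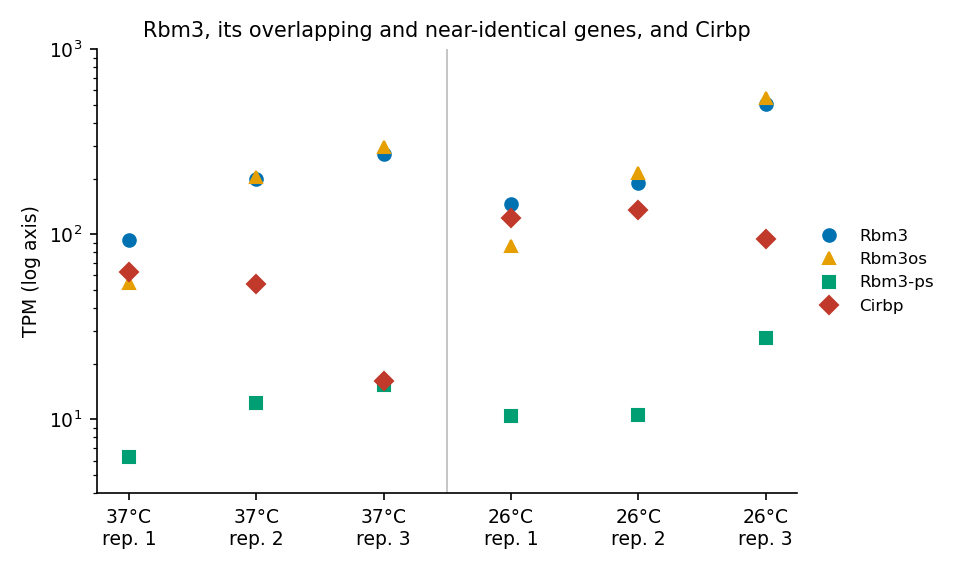
TPM (log axis) of Rbm3, Rbm3os, Rbm3-ps and Cirbp in each library, 3 at 37°C on the left and 3 at 26°C on the right. Rbm3, Rbm3os and Rbm3-ps are lowest in replicate 1 and highest in replicate 3 of each group, whereas Cirbp is lowest in replicate 3 of each group, at 16.2 and 94.7 TPM.

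The nearest genes on either side of Rbm3 and Cirbp were not called, beside 2.63% of all tested genes called upregulated and 16% downregulated. Midn, 7621 bases before Cirbp, had a log2 fold change of -0.34 (SE 0.29, adjusted p 0.44), and Fam174c, 157 bases after it, of -0.45 (SE 0.59, adjusted p 0.62). Beside Rbm3, Wdr13 had a log2 fold change of -0.36 (SE 0.43, adjusted p 0.59), and Tbc1d25 of -0.97 (SE 0.35, adjusted p 0.083). Set against the -0.34 over tested genes, these values were 0.00 for Midn, -0.11 for Fam174c, -0.02 for Wdr13 and -0.63 for Tbc1d25. With median of ratios scaling the log2 fold change was 0.06 for Midn and 0.01 for Wdr13, of the opposite sign. Under the replicate block Tbc1d25 had an adjusted p of 0.028 in limma. It was not called there because -0.97 is short of the required log2 size of 1.

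Among genes named for an RNA-binding motif, the Rbm family list, Rbm3 ranked high by level and in the upper part by fold change. Of the 44 listed genes 37 were tested. Of the 36 family members compared with it, 8, 1 and 0 had a higher TPM than Rbm3 in non-acclimated replicates 1, 2 and 3, and 7, 1 and 0 in cold-acclimated replicates 1, 2 and 3. By fold change 11 of the 36 lay above Rbm3, and by standard error in the fit without a block 2 of the 36. By the same standard error 6 of 37 family members lay above Cirbp. With the replicate block the standard error of Rbm3 was 0.24 instead of 0.55, so its high place by standard error holds for the fit without a block only. None of the 37 tested family members had a larger fold change than Cirbp, which was set beside them.

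Of the 36 tested family members other than Rbm3, 2 rose and 5 fell, beside 2.63% and 16% of all tested genes, with a median log2 fold change of 0.17, which is 0.51 above the median of all tested genes. The genes that rose, named after their values were seen, were Rbm22 (log2 fold change 1.15, SE 0.24, adjusted p 0.019), a component of the activated spliceosome, and Rbm18 (1.37, SE 0.33, adjusted p 0.028). Rbm12 fell the most, from 32.7 ± 5.05 to 5.56 ± 0.444 TPM (log2 fold change -2.35, SE 0.24, adjusted p 0.0067). Rbm5, a regulator of alternative splicing and apoptosis, fell from 84.6 ± 8.89 to 31.1 ± 3.13 TPM (-1.41, SE 0.21, adjusted p 0.0087). Rbm12b1, Rbm12b2 and Rbm45 also fell, and after median of ratios scaling 8 members were called upregulated and 4 downregulated, beside 6.56% and 8.79% of all tested genes.

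**Figure D5:**
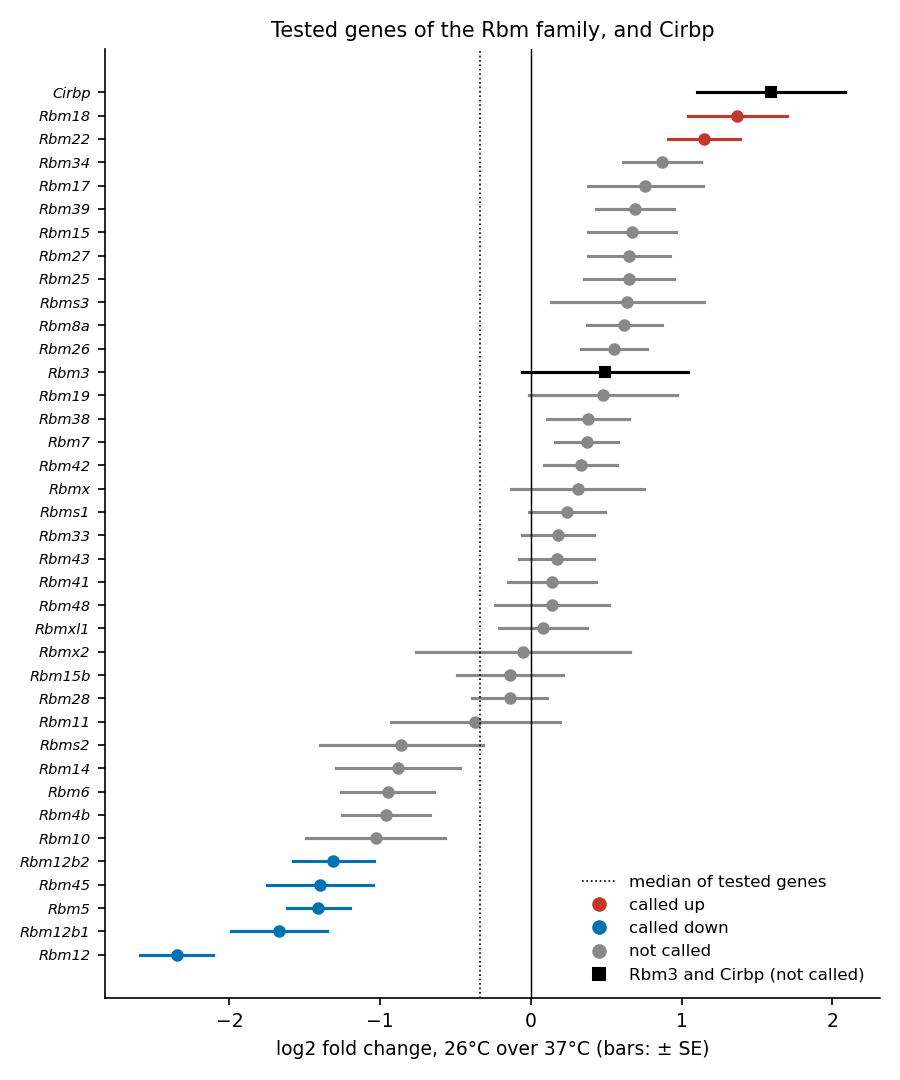
Log2 fold change (26°C over 37°C) with ± SE for the 37 tested genes of the Rbm family and for Cirbp, sorted by value, with the dotted line at the median of all tested genes (-0.34). Cirbp is at the top (1.59), Rbm3 has 11 family members above it (0.49) and a wide error bar, and the 5 genes that fell lie between -2.35 and -1.31.

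The other genes of the pathway are given from lists, in the order from regulators to targets. The counts of each list are to be read against the 2.63% of all tested genes called upregulated and the 16% called downregulated, and after median of ratios scaling against 6.56% and 8.79%. Of the upstream factors described for Rbm3 or Cirbp, 4 of 6 were tested, and 0 rose and 1 fell, beside 16% of all tested genes that fell (median -0.38, that is -0.04 relative to all tested genes). Creb1, a transcription factor that responds to cyclic AMP, fell from 20.9 ± 3.33 to 3.28 ± 1.26 TPM (log2 fold change -2.38, SE 0.30, adjusted p 0.007). Plcg1, a signalling phospholipase of the T cell receptor pathway, went from 64.5 ± 5.3 to 40.2 ± 2.82 TPM (-0.67, SE 0.21, adjusted p 0.056) and was not called. Sp1 was not called (adjusted p 0.73), nor was Hsf1 (adjusted p 0.86), and Ntrk2 was listed at 0 in every library.

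Among kinases of SR proteins and other splicing regulators, whose activity is known to respond to temperature, all 25 genes were tested, and 1 rose and 4 fell, close to the 2.63% and 16% of all tested genes (median -0.05, or 0.29 relative to all tested genes). Srsf1, a general splicing activator, fell from 239 ± 60.3 to 75.3 ± 7.04 TPM (-1.63, SE 0.26, adjusted p 0.0093). Hnrnpll, a regulator of splicing in activated T cells, fell from 86.3 ± 24.3 to 32.9 ± 4.63 TPM (-1.33, SE 0.28, adjusted p 0.019). The kinases Srpk1 (-1.35, adjusted p 0.02) and Srpk2 (-1.04, adjusted p 0.036) fell and Srsf5 rose (1.33, adjusted p 0.023), these 3 named after their values were seen. Of the CLK kinases, Clk1 had an adjusted p of 0.24 and none of Clk2, Clk3 and Clk4 was called. Only 1 of the 25 was called downregulated after median of ratios scaling.

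Of the 19 genes of nonsense-mediated decay, all tested, 0 rose and 1 fell, beside 2.63% and 16% of all tested genes (median 0.14, or 0.47 relative to all tested genes). Pnrc2, which links the decay machinery to decapping, fell from 104 ± 10.1 to 41.3 ± 7.18 TPM (-1.33, SE 0.22, adjusted p 0.011). Smg5, which takes part in dephosphorylating Upf1, went from 64.2 ± 22.4 to 121 ± 14.9 TPM (0.96, SE 0.31, adjusted p 0.062) and was not called. Here the scaling mattered: after median of ratios scaling 5 genes, Smg5 among them, were called upregulated and 0 downregulated, beside 6.56% and 8.79% of all tested genes.

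Cirbp is known to move to stress granules and to be methylated by Prmt1 and carried by transportin. Of the 16 genes of this list, all tested, 0 rose and 3 fell, close to the 16% of all tested genes that fell (median -0.07, or 0.27 relative to all tested genes). Atxn2, a stress granule protein, fell from 12.3 ± 1.24 to 1.19 ± 0.674 TPM (-2.64, SE 0.31, adjusted p 0.0068), and Tia1, a protein that nucleates the granules, from 17.9 ± 6.16 to 5.53 ± 1.65 TPM (-1.51, SE 0.34, adjusted p 0.023). The third gene that fell was Caprin1. Prmt1 (adjusted p 0.39) and the transportin gene Tnpo1 (adjusted p 0.46) were not called, and 1 of the 16 was called downregulated after median of ratios scaling.

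Of the described target transcripts of Rbm3 and Cirbp, 6 of 8 were tested, and 0 rose and 2 fell, beside 16% of all tested genes that fell (median -0.24, or 0.09 relative to all tested genes). Tert, the catalytic subunit of telomerase, fell from 5.56 ± 0.538 to 0.64 ± 0.174 TPM (-2.00, SE 0.27, adjusted p 0.0074). Rtn3, an endoplasmic reticulum protein whose translation Rbm3 is known to raise in neurons, fell from 128 ± 7.92 to 44.2 ± 24.1 TPM (-1.65, SE 0.38, adjusted p 0.024). Clock, which encodes a core clock activator, went from 11.6 to 18.4 TPM in the mean and was not called (adjusted p 0.22).

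The circadian clock list had 2 of its 15 tested genes upregulated and 0 downregulated, beside 2.63% and 16% of all tested genes (median 0.25, or 0.58 relative to all tested genes). Cry2, a repressor of the clock, rose from 7.42 ± 3.28 to 21.7 ± 1.41 TPM (1.52, SE 0.36, adjusted p 0.025), and Tef, an output factor of the clock, from 11.8 ± 6.54 to 31.2 ± 5.52 TPM (1.44, SE 0.38, adjusted p 0.036). For each of them the groups did not overlap, as for the 9.69% of tested genes with all cold-acclimated libraries higher. With the replicate block Nr1d2, a repressor of the clock named after its values were seen, was called as well (log2 fold change 1.09, SE 0.28, adjusted p 0.027).

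The heat shock list, genes known to respond to warming rather than cooling, had 0 of 16 tested genes upregulated and 1 downregulated, beside 2.63% and 16% of all tested genes (median -0.03, or 0.30 relative to all tested genes). Chordc1, a co-chaperone of Hsp90, fell from 113 ± 17.2 to 28.2 ± 17.6 TPM (-2.11, SE 0.40, adjusted p 0.015). Hspa4l, a member of the Hsp110 family, went from 20.5 ± 7.37 to 9.35 ± 1.97 TPM (adjusted p 0.074), and with the replicate block it too was called (adjusted p 0.021). The 4 tested genes with a cold shock domain held no call (median -0.08, or 0.26 relative to all tested genes). Ybx3, a cold shock domain protein that binds mRNA, went from 536 ± 89.2 to 597 ± 16.1 TPM (adjusted p 0.62).

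Genes were also ranked by how closely their log2(TPM + 1) followed each gene over the 6 libraries, among 9742 other genes whose mean reached 5 TPM. The libraries share replicate numbers and temperatures, so these correlations are a description. The genes most like Rbm3 were Dazap1 (r = 0.996), Fbxo45 (0.994), Commd8 (0.993), Psmc1 (0.990) and Rbm3-ps (0.989), and those most opposite were Gm5424 (-0.979), Glmp (-0.979) and Junb (-0.974). Dazap1, which encodes an RNA-binding splicing factor, ran from 144 to 227 TPM in non-acclimated and from 167 to 281 TPM in cold-acclimated libraries, and like the other 7 genes it was not called. Rbm3os followed Rbm3 with r = 0.968.

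The genes most like Cirbp were Mir3101 (r = 0.993), Emb (0.990), Smad5 (0.989), Chchd7 (0.987) and Cbfa2t2 (0.987), and those most opposite were Pglyrp2 (-0.997), Ring1 (-0.997) and Zdhhc8 (-0.994). Ring1, a Polycomb protein, was at 26.7, 28.5 and 37.5 TPM in non-acclimated replicates 1, 2 and 3 and at 22.2, 22 and 24.6 TPM in cold-acclimated replicates 1, 2 and 3. None of these 8 genes was called either. The correlation of Rbm3 with Cirbp was -0.123, and 5913 of the compared genes followed Rbm3 more closely than Cirbp did. Both genes had their largest difference in replicate 3, but at either temperature that replicate held the highest Rbm3 and the lowest Cirbp level.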

How the data were processed

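Poly(A)+ RNA of 6 D10 cultures was sequenced with strand-specific, paired-end libraries. The authors aligned reads to GRCm39 with HISAT2 2.1.0, counted them per gene with featureCounts 1.6.3 after FastQC 0.11.7 and Trimmomatic 0.38 (versions from the submitters' processing notes), and used DESeq2 for their own comparison. The TPM values, as deposited by the authors, were used unchanged. For the annotation release, the strand setting and the treatment of reads with several matches, nothing is given in the sources used here. Because each gene's TPM values were whole multiples of a common step, the read numbers were recovered for 100% of 21195 genes (tolerance 1e-06 reads), 16899628 to 31290854 per library. For the 2734 genes above 0 in 1 library only, a whole number is always found, so the 100% is no success rate for them. The reads of 901 genes were multiplied by a factor that made the implied gene length whole.

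Genes were tested with limma 3.58.1 (R 4.3.3) on log2(TPM + 1), its variance prior following mean expression, over the 12227 genes whose mean reached 1 TPM. Folds on this scale understate changes of low genes. Calls required a Benjamini-Hochberg adjusted p under 0.05 over all tested genes and a log2 fold change of 1 or more in either direction. The Rbm3 to Cirbp ratio was compared by exact tests. The procedure was tested on simulated libraries without pairing by replicate number, in which rises and falls were equally likely. That test does not cover the pairing and the shifted median of the real libraries. Alternatives were another pseudocount (0.1), filter, scaling, replicate block, voom on recovered reads, and leaving out libraries.

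Deviations from the group mean correlated between libraries of the same replicate number at 0.48, 0.50 and 0.51 and between other libraries at -0.41 to 0.02, so the numbers pair the libraries; this comes from the data, since the labels only number them. The study describes the replicates as independently prepared.

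The genes, the lists and the rule for named genes were chosen with earlier results of these data known. The rule takes Rbm3 and Cirbp, overlapping, similarly named and nearest genes, the 2 tested genes of smallest p in each list, and per gene the 5 genes most and 3 least correlated with it. All list entries matched by symbol. The 250-base upstream windows and the Rbm3-ps alignment (Biopython 1.88) came from the GRCm39 genome and GENCODE M39. Python 3.11.15 with scipy 1.17.1, pandas 2.3.3 and numpy 2.4.6 gave the remaining values, and matplotlib 3.10.9 the figures. Protein sequences were not used here, and some items that these rules select are not reported here.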

Additional observations from a re-analysis of the deposited data

How the results depend on the processing

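The log2 fold change of Cirbp was positive in every fit. It passed both thresholds, which it had missed at 1.59 (adjusted p 0.055), with median of ratios scaling (1.98), with voom on recovered reads (2.09), with the replicate block (1.59), with the replicate block and median of ratios scaling (1.98), and without replicate 3 in both groups (1.14, chosen after seeing the data). A pseudocount of 0.1, no filter, a mean TPM of at least 5, quantile normalization and the nuclear protein-coding total left it uncalled, at adjusted p of 0.054 to 0.12, as did leaving out replicate 2 in both groups (adjusted p 0.25). Leaving out 1 library gave 0.995 to 1.94 for Cirbp (adjusted p 0.045 to 0.16), never past both thresholds. Rbm3 was not called in any fit; leaving out 1 library gave -0.038, a reversed sign without cold-acclimated replicate 3, to 0.852. The Rbm3 change minus the Cirbp change was -1.88 to -0.17 without 1 library. The cause of these shifts was not tested. Genes called upregulated and downregulated numbered 321 and 1954 as reported, 802 and 1075 with median of ratios, 731 and 765 with quantile normalization, 767 and 1122 with voom, 184 and 1121 with no filter, 227 and 1518 at a mean TPM of at least 5, 1086 and 1544 with the block and median of ratios, 458 and 2679 with the replicate block, 653 and 3088 without replicate 3 in both groups, 0 and 0 without replicate 2 in both groups (also chosen after seeing the data, limma, 2229 genes at an unadjusted p under 0.05), and 59 to 459 and 345 to 2725 without 1 library. Of 18 list counts, median of ratios scaling moved 5 (Rbm family up 8; splicing regulators down 1; decay up 5 and down 0; stress granules down 1), the replicate block 1 (heat shock down 2), and leaving out replicate 3 in both groups 4 (Rbm family down 8; decay up 1 and down 2; heat shock down 2). The block changed no call on Rbm3 and moved no other list count by over 1.5 times.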
